A study of Mus musculus with 8 samples.

Results

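The transcripts described here are 10 genes of the Hippo pathway and of its effectors YAP and TAZ, chosen by gene symbol: Yap1, Wwtr1, Tead1, Tead2, Lats1, Lats2, Amotl2, Ankrd1, Cyr61 and Ctgf. All 10 were found among the 47706 genes of the count table, each with 1 entry, and all 10 were among the 16736 genes with enough counts to be tested. The cells were mouse primary calvarial osteoblasts, bone-forming cells from the skullcap of newborn mice, cultured for 7 days of differentiation and then given parathyroid hormone (PTH) or vehicle for 24 hours, with 4 samples per treatment. The study's methods describe osteogenic medium and a period of serum starvation before the hormone, whereas the sample labels name adipogenic differentiation, and the titles carry the prefix Con, which the labels do not spell out. No genotype, strain or further treatment is given for these samples, and nothing says whether the 4 samples of a treatment came from separate preparations of cells, so the p-values measure the spread between these samples, which may be technical.

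The Hippo pathway is a kinase relay that senses cell density, cell shape and soluble signals. Its terminal kinases, LATS1 and LATS2, phosphorylate the coactivators YAP (from Yap1) and TAZ (from Wwtr1), which then stay in the cytoplasm or are degraded; without that phosphorylation they enter the nucleus and switch on genes through the DNA-binding TEAD factors. In osteoblasts YAP and TAZ are known for roles in bone formation and in the response to mechanical load. The counts measure RNA, so phosphorylation, protein level and nuclear location were not measured.

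Library totals lay between 33605610 and 56090654 counts. Correlations between samples of log2 CPM, where CPM is the count scaled by the TMM-adjusted library total, were between 0.974 and 0.986 within a treatment and between 0.937 and 0.949 across treatments. Tnfsf11, the gene of the osteoclast factor RANKL, which PTH is known to induce, had at most 1.79 CPM in any vehicle sample and at least 115 CPM in every PTH sample. The osteoblast marker list had a median of between 301 and 537 CPM in the 8 samples, against between 3.89 and 6.33 CPM for the adipocyte list. Of the 8 osteoblast markers 2 fell with PTH, Sp7 (log2 fold change -1.78) and Runx2 (-0.33), both transcription factors of the osteoblast lineage, and 0 rose. Among 6 adipocyte markers Pparg fell (-1.50), among 5 chondrocyte markers Col2a1 (0.44) and Acan (1.03) rose, and among 5 endothelial markers, which summed to at most 6.97 CPM, Kdr rose, Tek fell and Emcn was at 0 in every sample. The chondrocyte list summed to 317 to 332 CPM with vehicle and 370 to 487 CPM with PTH. Macrophage markers were present, with a summed level of 977 to 1584 CPM with vehicle and 1527 to 1968 CPM with PTH. Of the 7, 1 (Lyz2) passed the test, higher with PTH. Lyz2 made up most of the sum, with a mean of 914 CPM with vehicle and 1417 CPM with PTH. The other macrophage markers each averaged at most 81.7 CPM in either treatment. The part of the markers of all these cell types in the results below was not tested. In a bulk sample, fewer cells of a type and less RNA per cell cannot be told apart.

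TEAD factors recognise the hexamer GGAATG, the core of the M-CAT element, and the sequences around it are shown here because the pathway acts on its targets through these factors. RefSeq promoter windows on GRCm38.p6, from 250 bases before to 50 bases after the start site, were at hand for 8 of the 10 genes. Tead1 and Ctgf, the latter under its current symbol Ccn2, had no entry. The hexamer, searched on both strands, was in 6 of these 8 genes (Yap1, Wwtr1, Lats2, Amotl2, Ankrd1 and Cyr61) and in 16.6% of the 27025 genes with a window, or 14.7% of all 32851 windows. It was in 3 of the 11 other YAP and TAZ targets and 7 of the 20 upstream regulators with a window, and in 13.1% of genes that rose, 15.6% of genes that fell and 15.2% of genes that did not pass the test. The 7 matches in the window of each gene's outermost RefSeq start site are printed below in 30 bases each, 5′ to 3′ on the strand that reads GGAATG, with the hexamer in capitals.
Cyr61: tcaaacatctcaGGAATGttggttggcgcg
Ankrd1, farther match: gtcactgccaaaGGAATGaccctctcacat
Ankrd1, nearer match: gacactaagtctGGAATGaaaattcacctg
Amotl2: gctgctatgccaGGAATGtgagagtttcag
Lats2: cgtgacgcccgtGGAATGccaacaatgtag
Wwtr1: ggtaaactcaaaGGAATGcagataggcgct
Yap1: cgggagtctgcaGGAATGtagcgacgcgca

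Measured to the first base of the hexamer, the match lay 103 bases upstream of the start site in Cyr61, 65 upstream in Amotl2, 136 upstream in Wwtr1 and 141 upstream in Yap1. Ankrd1 had matches 210 and 123 bases upstream, and the match of Lats2 began 5 bases into the transcript. The stretches lie at chr3:145650071-145650100 (Cyr61, plus strand), chr19:36120037-36120066 and chr19:36119950-36119979 (Ankrd1, minus strand), chr9:102717727-102717756 (Amotl2, minus strand), chr14:57746102-57746131 (Lats2, minus strand), chr3:57576029-57576058 (Wwtr1, minus strand) and chr9:8004720-8004749 (Yap1, minus strand). In the GENCODE M21 annotation, which extends farther upstream for Ankrd1, Amotl2 and Lats2, the stretches of Ankrd1, Amotl2 and Lats2 fall in an exon and touch a 5′ UTR, and those of Cyr61, Wwtr1 and Yap1 lie outside exons of their gene. Genes that fell, genes that rose and a gene that did not pass the test (Yap1) all carried the hexamer, as described below.

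**Figure D1:**
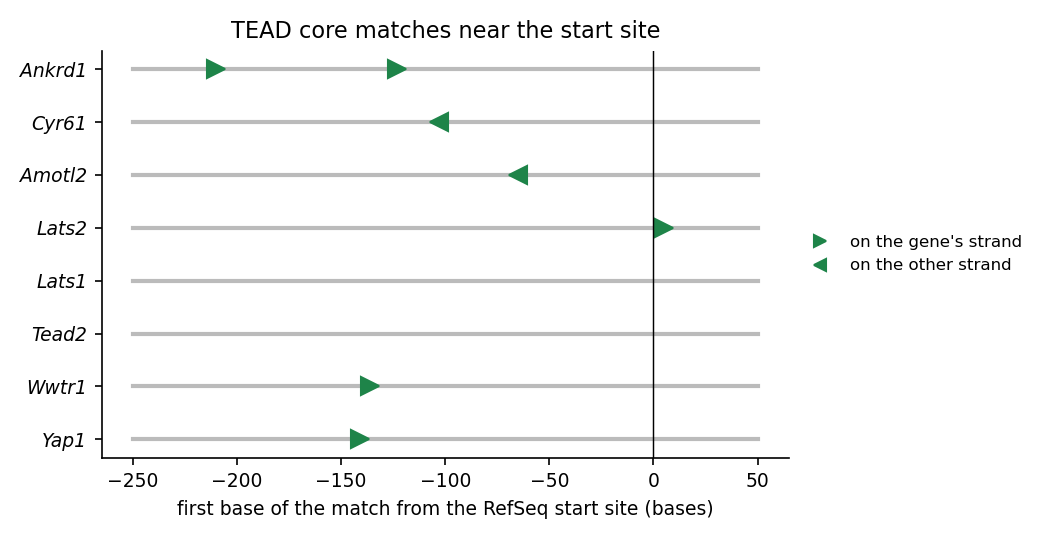
Positions of the TEAD hexamer GGAATG in the windows of the 8 genes with a RefSeq promoter entry; the x axis is the distance of the first base of the match from the start site, in bases, and the arrow gives its strand relative to the gene. Ankrd1 has 2 matches, Lats1 and Tead2 have none, and the match of Lats2 lies just inside the transcript.

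The same search was made for other elements on both strands: the full cAMP response element TGACGTCA, the AP-1 site TGANTCA, whose letters are not part of TGACGTCA, and the CArG box bound by SRF. None of the 8 genes had any of these, and the shares of all genes with a window that did were 2.03%, 8.97% and 1.81%, or 1.79%, 7.81% and 1.63% of all windows. No match says only that these letters are not in the window. The 250 bases before the start are printed for Cyr61, which fell, and Wwtr1, which rose, as the pair with a hexamer outside annotated exons and opposite directions of change, with the hexamer in capitals on whichever strand it reads.
Cyr61, minus strand, chr3:145649986-145650235: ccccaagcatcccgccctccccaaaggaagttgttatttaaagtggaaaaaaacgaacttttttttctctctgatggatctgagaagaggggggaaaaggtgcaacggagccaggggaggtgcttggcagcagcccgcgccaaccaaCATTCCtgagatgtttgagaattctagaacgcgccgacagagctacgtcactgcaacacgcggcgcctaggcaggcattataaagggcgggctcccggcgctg
Wwtr1, minus strand, chr3:57575911-57576160: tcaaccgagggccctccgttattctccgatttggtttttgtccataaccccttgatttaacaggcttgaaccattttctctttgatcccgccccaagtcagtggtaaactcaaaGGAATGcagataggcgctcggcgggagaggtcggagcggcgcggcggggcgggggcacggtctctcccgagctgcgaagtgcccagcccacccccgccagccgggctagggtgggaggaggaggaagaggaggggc

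Of the 10 genes, 5 fell with PTH (Tead2, Amotl2, Ankrd1, Cyr61 and Ctgf), 2 rose (Wwtr1 and Lats2) and 3 (Yap1, Tead1 and Lats1) did not pass an adjusted p of 0.05 in edgeR's quasi-likelihood test. Over all genes tested, 45.8% passed, 23.3% higher and 22.5% lower with PTH. PTH and vehicle samples did not overlap in 8 of the 10 genes, against 43.0% of all genes tested, 21.2% with PTH above and 21.8% with PTH below. The median log2 fold change was -0.22 over the 10 genes and -0.00081 over all genes tested. By role, Amotl2, Ankrd1, Cyr61 and Ctgf, called the 4 output genes here, all fell, with a median of -0.93, while Lats2, a kinase gene that is also a target, rose, so that of the 5 genes known as targets 4 fell and 1 rose. Among the 6 genes of coactivators, TEADs and kinases 2 rose and 1 fell, with a median of 0.075.

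**Figure D2:**
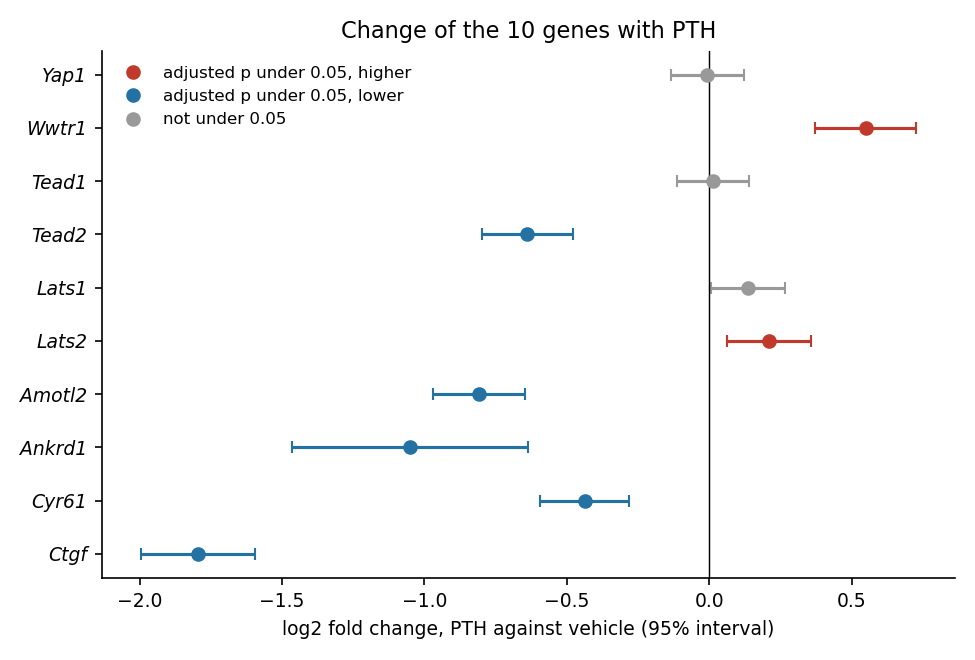
log2 fold change of PTH against vehicle for the 10 genes, with the 95% interval from edgeR's fit of 4 against 4 samples. The intervals of the 4 output genes and of Tead2 lie below 0, those of Wwtr1, Lats2 and Lats1 above 0, although Lats1 did not pass the adjusted threshold, and those of Yap1 and Tead1 span 0.

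Ctgf, also called Ccn2, encodes connective tissue growth factor, a secreted matricellular protein, and is a standard readout of YAP and TAZ activity. It lies on chromosome 10 from 24595442 to 24598683. With vehicle the 4 samples had 141, 131, 133 and 123 CPM, and with PTH 37.0, 32.1, 38.4 and 44.2 CPM. All PTH samples lay far below all vehicle samples. From 132 ± 7.61 to 37.9 ± 4.99 CPM (mean ± SD, n = 4), the difference on the log2 scale was -1.80 (SE, standard error, 0.0923; adjusted p = 1.64e-08), which is a level 71.2% lower. In the order of log2 fold changes from the largest fall, Ctgf stood at place 138 of the 16736 genes. A noncoding gene on the other strand, Gm15270, aligns with Ctgf over 347 bases at 95% identity or more. It had at most 31 counts in any sample, against at least 1066 for Ctgf.

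Cyr61, also called Ccn1, encodes the matricellular protein closest to Ctgf in kind and is likewise a standard readout. It lies on chromosome 3 from 145646976 to 145649981. Its levels were 208, 203, 203 and 200 CPM with vehicle and 164, 136, 142 and 159 CPM with PTH. All PTH samples were below all vehicle samples, but the distance was smaller than for Ctgf. On the log2 scale the difference was -0.44 (SE 0.0714; adjusted p = 3.54e-04), a level 26.1% lower, from 204 ± 3.16 to 150 ± 13.6 CPM. The spread was wider with PTH than with vehicle, and the PTH samples with the larger libraries (replicates 1 and 4) were above the other two. Library size went with the level within PTH in this way, and its part in the result was not tested. Without each sample in turn the log2 fold change of Cyr61 lay between -0.48 and -0.38.

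Ankrd1 encodes an ankyrin repeat protein of muscle cells that acts in the nucleus and at the sarcomere, and its transcript is induced by YAP. The gene is on chromosome 19 from 36111961 to 36120099. It was the least abundant of the 10, with 145 to 237 counts per vehicle sample and 71 to 97 counts per PTH sample. The vehicle samples had 4.57, 4.62, 3.03 and 4.78 CPM and the PTH samples 1.89, 2.14, 1.96 and 2.21 CPM. No PTH sample reached the lowest vehicle sample, although vehicle replicate 3 was well below the other vehicle samples. The log2 difference was -1.05 (SE 0.190; adjusted p = 7.29e-04), a level 51.8% lower, and it was -1.19 without vehicle replicate 3. Of 8 muscle markers, 7 were under 1 CPM in every sample. The summed level of the list was 1.18 to 2.65 CPM with vehicle and 2.23 to 3.53 CPM with PTH, and Myh3, an embryonic myosin heavy chain gene, was the 1 marker that passed the test, higher with PTH.

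Amotl2 encodes a scaffold of the angiomotin family that binds YAP and activates LATS kinases, and it is itself a target of YAP and TAZ. It lies on chromosome 9 from 102716672 to 102733418. Vehicle samples had 218, 218, 209 and 194 CPM, and PTH samples 107, 118, 123 and 131 CPM. The groups were far apart relative to the spread within each. The level went from 209 ± 11.4 to 120 ± 9.89 CPM, a difference of -0.81 on the log2 scale (SE 0.0745; adjusted p = 3.06e-06), or 42.9% lower.

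**Figure D3:**
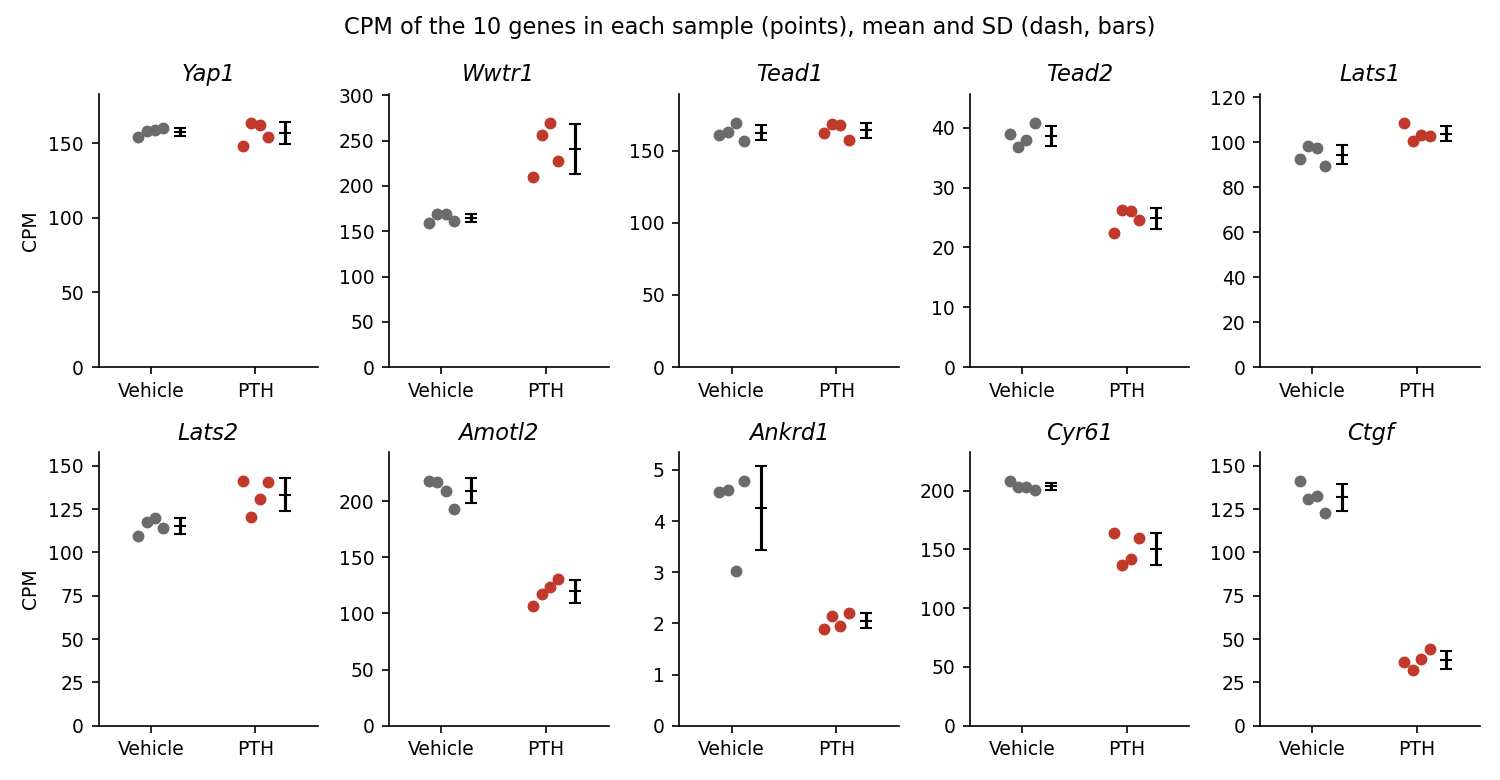
CPM of each of the 10 genes in each of the 4 vehicle (grey) and 4 PTH samples (red), with the mean and SD beside the points and all axes starting at 0. The treatments overlap for Yap1 and Tead1, and do not overlap for the other genes; Ctgf shows the widest separation, from 132 to 37.9 CPM on average.

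Of the coactivators, Wwtr1 rose and Yap1 did not pass the test. Wwtr1, which encodes TAZ on chromosome 3 from 57455649 to 57575910, had 160, 169, 169 and 161 CPM with vehicle and 210, 256, 270 and 227 CPM with PTH. All PTH samples exceeded all vehicle samples. The log2 difference was 0.55 (SE 0.0811; adjusted p = 1.62e-04), a level 1.46-fold that of vehicle. Here the PTH replicates with the smaller libraries (2 and 3) were above the other two, the reverse of the order in Cyr61, and the part of library size was not tested; the log2 fold change was between 0.49 and 0.61 without each sample in turn. Yap1, on chromosome 9 from 7931999 to 8004596, had 154, 158, 159 and 160 CPM with vehicle and 148, 164, 162 and 154 CPM with PTH. These ranges lay over each other, and the log2 difference was -0.0068 (adjusted p = 0.935). Its 95% interval, from -0.14 to 0.12, runs from 0.910-fold to 1.09-fold, given the spread of these samples and the TMM scaling.

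Of the TEAD genes among the 10, Tead1, the more abundant, did not pass the test, and Tead2 fell. Tead1, on chromosome 7 from 112679318 to 112906807, had between 157 and 169 CPM with vehicle and between 158 and 169 CPM with PTH. The difference on the log2 scale was 0.014 (adjusted p = 0.860), and its 95% interval ran from -0.11 to 0.14. Tead2, on the same chromosome from 45215753 to 45233644, had 38.9, 36.8, 38.0 and 40.8 CPM with vehicle and 22.5, 26.2, 26.2 and 24.5 CPM with PTH. The groups did not overlap and differed by -0.64 on the log2 scale (SE 0.0732; adjusted p = 2.09e-05), a level 35.8% lower. Tead2 overlaps Cd37, a leukocyte membrane gene on the other strand, and reads of such a pair cannot be told apart where counting did not use strand, which the sources used here do not state. Cd37 had 148 to 292 counts with vehicle and 226 to 264 with PTH, against at least 870 for Tead2, and did not pass the test (log2 fold change 0.43, adjusted p = 0.0901). Within each library, Tead1 made up 48.8% ± 1.21 of the summed TEAD transcripts per kilobase with vehicle and 57.4% ± 2.07 with PTH, and Tead2 32.9% ± 1.49 and 24.6% ± 0.916 (SD, n = 4). Tead3 held 17.3% with vehicle and 17.4% with PTH, and Tead4, at 0 to 64 counts per sample, under 1% on average in both.

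The kinase genes were both slightly higher on average with PTH, at or near the threshold. Lats2, on chromosome 14 from 57689662 to 57758388, is also a target of YAP and TAZ, by which the pathway restrains itself. It had 109, 117, 120 and 114 CPM with vehicle and 141, 121, 131 and 141 CPM with PTH. The lowest PTH sample lay only just above the highest vehicle sample. Within PTH, Lats2 was highest in the largest library (replicate 1) and lowest in the smallest (replicate 2), and the part of library size was not tested. Between treatments the difference on the log2 scale was 0.21 (SE 0.0677, adjusted p = 0.0230), with a 95% interval from 0.063 to 0.36. That call was lost with the replicate block (adjusted p = 0.0628), without the filter on low counts (0.117) and without PTH replicate 3 (0.0534), PTH replicate 4 (0.0739), vehicle replicate 1 (0.0938), vehicle replicate 2 (0.0719) or vehicle replicate 4 (0.0718). The assembly places Lats2 in 1 locus with Xpo4, a nuclear transport gene with 688 to 1291 counts per sample (log2 fold change 0.19, adjusted p = 0.102). The annotated gene Gm49361 aligns with Lats2 over 2956 bases at 95% identity or more. The counts of Lats2 are uncertain to the extent of both. Lats1, on chromosome 10 from 7681214 to 7716460, had 92.6, 98.3, 97.5 and 89.6 CPM with vehicle and 109, 101, 103 and 103 CPM with PTH. The groups did not overlap, yet the log2 difference of 0.14 (SE 0.0589) had an adjusted p of 0.0785 and passed without PTH replicate 2 (0.0487).

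Ratios within a library do not depend on how libraries are scaled, and 4 pairs of related genes were compared by an exact permutation test over the 70 assignments of samples, in which 0.0286 is the smallest two-sided p that 4 against 4 allow. The ratio of Wwtr1 to Yap1, in counts per kilobase of exon, went from 2.02 ± 0.0534 with vehicle to 2.97 ± 0.206 with PTH (exact p = 0.0286, adjusted over the 4 pairs 0.0381). The Tead2 to Tead1 ratio went from 0.675 ± 0.0476 to 0.429 ± 0.0240, and that of Ctgf to Cyr61 from 0.456 ± 0.0194 to 0.178 ± 0.0183 (exact p = 0.0286 and adjusted 0.0381 for each). In these 3 pairs no PTH sample lay within the vehicle range. Ctgf therefore fell more than Cyr61 in the same libraries, by a difference of -1.36 in the log2 ratio. How often other gene pairs separate in this way was not computed, and 43.0% of single genes tested did not overlap. Yap1 and Tead1 did not pass the test themselves, so the ratios to them largely restate the changes of Wwtr1 and Tead2. The Lats2 to Lats1 ratio was 1.28 ± 0.0425 with vehicle and 1.34 ± 0.0742 with PTH, and these ranges overlapped (exact p = 0.171, adjusted 0.171).

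**Figure D4:**
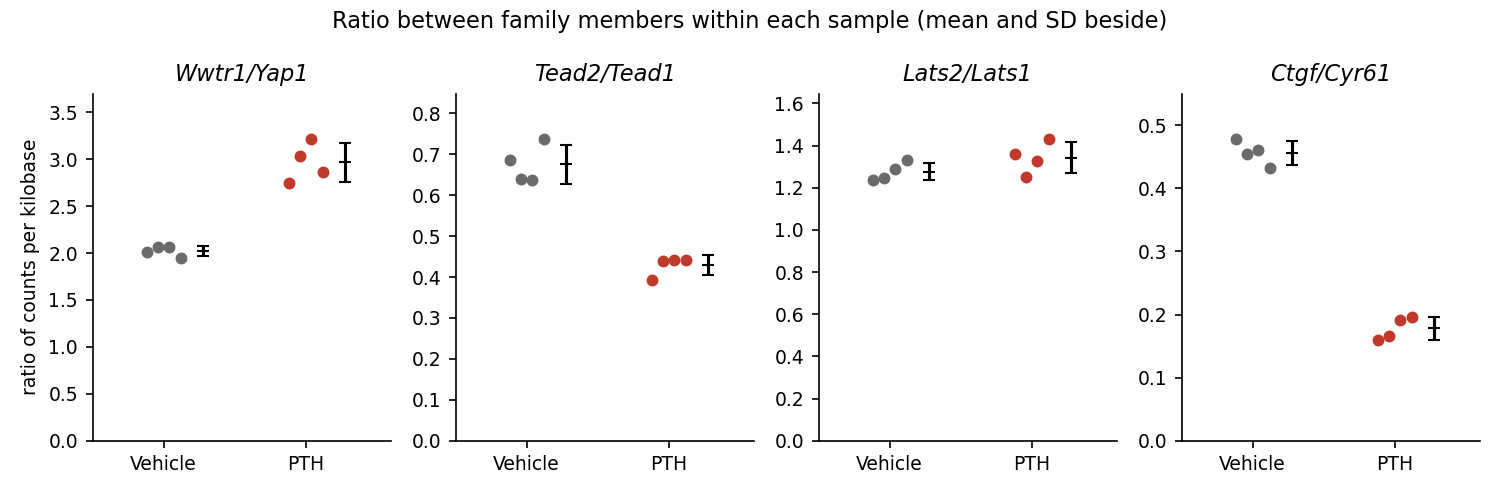
Ratio of counts per kilobase between related genes within each of the 4 vehicle (grey) and 4 PTH samples (red), with mean and SD beside the points. Ctgf/Cyr61 goes from 0.456 to 0.178, Tead2/Tead1 from 0.675 to 0.429 and Wwtr1/Yap1 from 2.02 to 2.97 on average, while Lats2/Lats1 overlaps between treatments.

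Levels of different genes were set side by side per kilobase of exon, where the length covers all annotated exons of a gene. It can exceed the length of the transcripts expressed, so the order depends on the annotation. With vehicle the order in CPM per kilobase was Cyr61 (101 ± 1.56), Ctgf (46.1 ± 2.66), Wwtr1 (34.4 ± 1.02), Amotl2 (33.3 ± 1.81), Yap1 (17.0 ± 0.295), Lats2 (16.5 ± 0.656), Lats1 (12.9 ± 0.571), Tead1 (11.96 ± 0.387), Tead2 (8.07 ± 0.352) and Ankrd1 (1.47 ± 0.284). Sample ranges of neighbours in that order overlapped for Wwtr1 and Amotl2, for Yap1 and Lats2, and for Lats1 and Tead1. With PTH, Ctgf moved from the second to the seventh place at 13.3 ± 1.75 CPM per kilobase, where its range overlapped those of Lats1 and Tead1. Wwtr1 was then second at 50.4 ± 5.67, and Cyr61 was still first at 74.5 ± 6.73, while Ankrd1 was last in both treatments. Cyr61 had a higher level per kilobase over all samples than 96.8% of the genes tested and Ankrd1 than 27.7%.

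Other genes of the pathway were taken from 3 lists and are given by their counts. Of 26 upstream regulators, all tested, 8 rose and 8 fell, against 23.3% and 22.5% of all genes tested, with a median log2 fold change of 0.0021. The number that fell was 5 without vehicle replicate 2 and 5 without vehicle replicate 3. The largest rises were those of Frmd6, a FERM protein upstream of the kinases, from 172 ± 9.85 to 525 ± 88.3 CPM (1.61 on the log2 scale, adjusted p = 1.93e-07), of Ptpn14, a phosphatase that retains YAP outside the nucleus (0.98, adjusted p = 1.49e-07), and of Sav1, the scaffold of the upstream kinases (0.88, adjusted p = 1.53e-07). The largest falls were those of Ajuba (log2 fold change -1.85, adjusted p = 1.15e-08) and Limd1 (-0.42, adjusted p = 1.76e-04), LIM proteins that bind and restrain LATS, and of Amotl1 (-0.49, adjusted p = 1.14e-04), a relative of Amotl2. Ajuba went from 31.6 ± 2.97 to 8.78 ± 0.545 CPM. Of 6 other TEAD genes and TEAD cofactors, 4 were tested, and 1 fell: Vgll3, a cofactor that competes for TEADs, from 136 ± 5.16 to 73.7 ± 6.76 CPM (-0.88 on the log2 scale, adjusted p = 1.25e-06). The remaining tested ones were Tead3 (log2 fold change -0.21, adjusted p = 0.0870), Tead4 (-1.07, adjusted p = 0.262) and Vgll4 (-0.12, adjusted p = 0.313), while Vgll1 and Vgll2 had too few counts. Tead3 passed without PTH replicate 2 (adjusted p = 0.0191).

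YAP and TAZ targets beyond the 10 genes moved in both directions, at shares near those of all genes tested. A published signature of conserved targets holds Amotl2, Lats2, Ankrd1, Cyr61 and Ctgf and 17 further genes, Ptpn14 among them. Of these 17, 4 rose (23.5%), 5 fell (29.4%) and 8 did not pass, with a median log2 fold change of 0.030. Over all genes tested 23.3% rose and 22.5% fell. Gadd45a, a stress-response gene that arrests the cell cycle, rose from 10.5 ± 1.02 to 35.1 ± 2.27 CPM (1.73 on the log2 scale, adjusted p = 1.74e-08), and Crim1, a transmembrane protein that binds BMPs and whose counted locus also holds the small RNA gene Gm25069, had a log2 fold change of 1.17 (adjusted p = 3.71e-07). Fjx1 (log2 fold change -0.92, adjusted p = 6.75e-05), Arhgef17 (-0.56, adjusted p = 2.56e-05) and Nt5e, the ecto-nucleotidase CD73 (-0.54, adjusted p = 0.00477), fell. With the 5 members included, 5 of the 22 signature genes rose (22.7%) and 9 fell (40.9%), against 23.3% and 22.5% of all genes tested. The members and the list were chosen with earlier results of these data known.

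**Figure D5:**
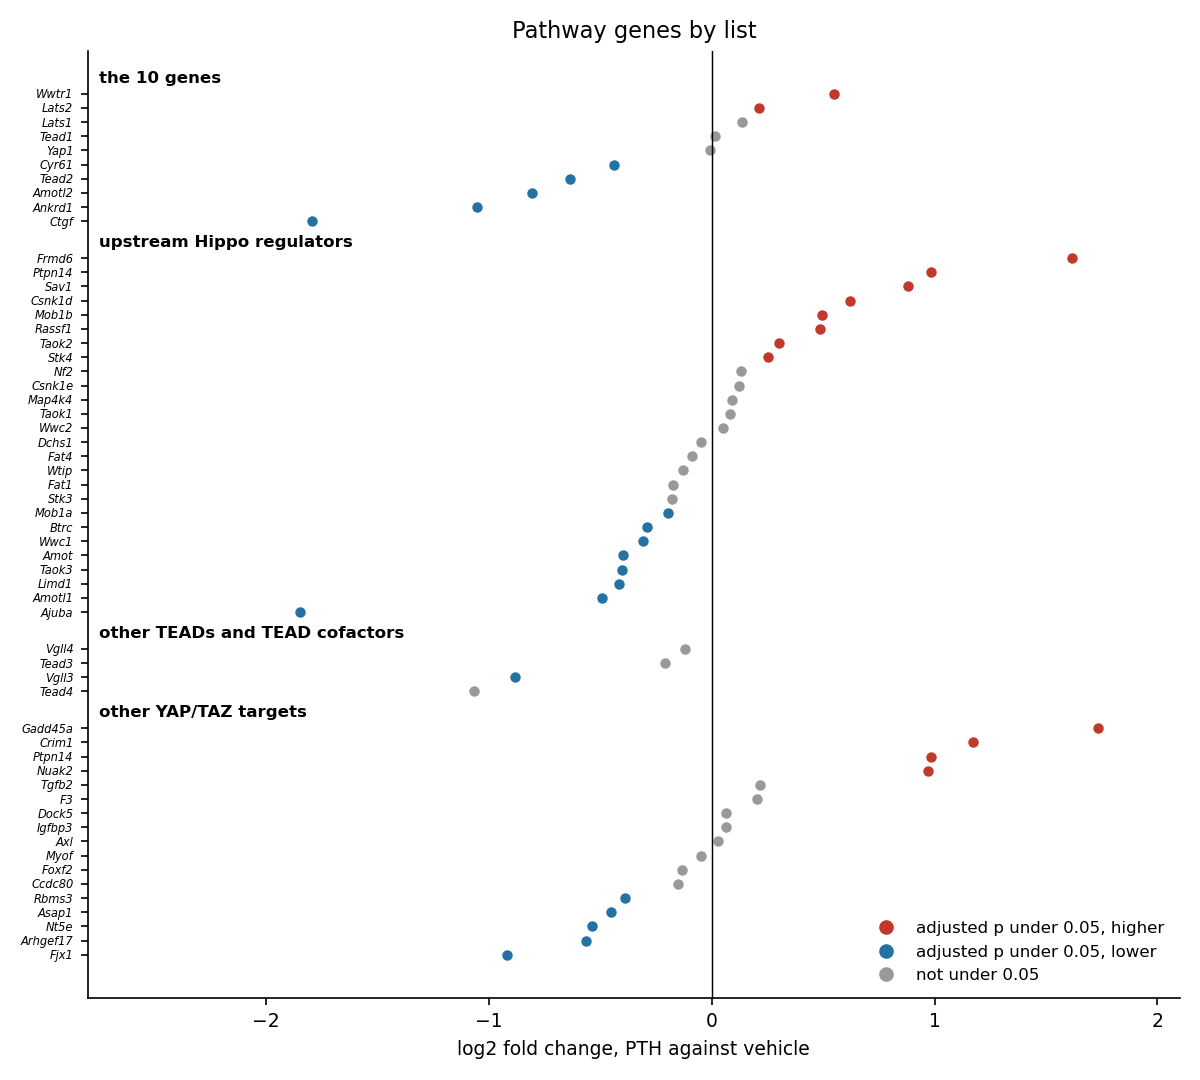
log2 fold change of PTH against vehicle for each tested gene of the 10 and of the 3 pathway lists, sorted within each list; red and blue mark an adjusted p under 0.05 in edgeR, higher and lower, and grey the rest. The 4 output genes among the 10 are all blue, while the 17 other targets spread from -0.92 for Fjx1 to 1.73 for Gadd45a.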

How the data were processed

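Poly(A) RNA of 8 samples, 4 per treatment, was sequenced as paired reads of 150 bases. The authors used HISAT2 for alignment (GRCm38) and StringTie2 for assembly, and they deposited gene counts from the companion script of the latter, which derives counts from transcript coverage and a set read length (75 bases by default). The value used, tool versions, annotation and strand setting are not given in the sources used here.

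Groups came from the sample titles. Counts were tested with edgeR 4.0.16 (TMM, filterByExpr with a minimum count of 10 and total of 15, quasi-likelihood test) in R 4.3.3 over 16736 genes, with Benjamini-Hochberg adjustment and a threshold of 0.05, and 95% intervals from the same fit. Coordinates and exon lengths were from GENCODE M21. An exon length covers all annotated exons of a gene, so levels, TEAD shares and the size of ratios per kilobase depend on the annotation. DESeq2 1.42.0 was an alternative, and DESeq2 is also what the authors used for their own test. In simulated data over 16736 genes, 200 genes were changed. There edgeR recovered 31 of 68 genes changed by 0.5 on the log2 scale, 52 of 66 changed by 1 and 62 of 66 changed by 2, with 3 false calls. In the data 45.8% of genes passed, which moves the cutoff of the adjustment, so these numbers do not give the recovery in the data. The members and lists were chosen with earlier results of these data known. Named were the 10 members and, per pathway list, up to 3 called genes with the largest rise and up to 3 with the largest fall at a mean of at least 1 CPM, with Tnfsf11 as a check of the labels; Tead3, Tead4 and Vgll4 were named after their values were seen. Library totals differed by up to 1.67-fold. Alternatives were other scaling, tool and filter, the replicate block, each sample left out, halved counts, summed entries, a minimum fold change and, added after seeing the data, a transcript length offset.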

Additional observations from a re-analysis of the deposited data

Results flagged for a closer look

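Each group of 4 samples was checked for a sample far from the other three, in 52 groups in all, and 2 were found, where chance gives about 1 in 20. Ankrd1 in vehicle replicate 3 was at 3.03 CPM, against 4.57 to 4.78 CPM in the other vehicle samples. The Tead2 to Tead1 ratio in PTH replicate 1 was 0.393, against 0.440 to 0.442 in the other PTH samples, and this was the largest of the 8 libraries with 56090654 counts.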

How the results depend on the processing

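Ankrd1 and Ctgf kept their direction and call in all 16 alternatives, and Amotl2, Cyr61, Tead2 and Wwtr1 in all but the minimum log2 fold change of 1, which by its construction left 2 of the 10 genes lower and 0 higher. Under that minimum, 1232 genes were higher and 650 lower in all, and 1 upstream regulator was higher and 1 lower. Of the other TEADs and TEAD cofactors 0 were lower, and 2 other targets were higher and 0 lower. Of the 10 genes, 1 was higher without the filter on low counts and 1 with the replicate block, since the call of Lats2 was lost; the cause was not tested. The number of upstream regulators that fell was 5 with the transcript length offset, where Lats1 also passed (log2 fold change 0.20, adjusted p = 0.0181).

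Leaving out each sample gave 1 to 3 of the 10 genes higher and 5 lower. Of the upstream regulators 7 to 9 were higher and 5 to 8 lower (5 without vehicle replicate 2 or 3). In the list of other TEADs and TEAD cofactors 1 to 2 were lower. The number was 2 without PTH replicate 2, where Tead3 also passed (adjusted p = 0.0191). Of the other targets 4 to 5 were higher and 5 to 6 lower. Over all genes tested 3412 to 4119 were higher and 3259 to 3955 lower. The log2 ratio differences lay between 0.51 and 0.59 for Wwtr1 to Yap1, -0.68 and -0.61 for Tead2 to Tead1, and -1.41 and -1.31 for Ctgf to Cyr61, where 3 against 4 samples allow no exact p under 0.0571. Yap1 and Tead1, which did not pass in any alternative, changed sign around 0, and with each sample left out lay between -0.028 and 0.018 (Yap1) and between -0.0056 and 0.032 (Tead1). Yap1 was at 0.0015 with DESeq2 size factors, 0.0029 with halved counts, 0.039 with the length offset, 0.018 without PTH replicate 1 and 0.0013 without PTH replicate 4. Tead1 was at -0.022 without the filter, -0.00042 without PTH replicate 3 and -0.0056 without vehicle replicate 4.

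The sample numbers did not pair the samples: same-numbered samples had deviations correlated between -0.041 and 0.027, and 1 of 8 samples correlated best with its own number. With the replicate block, 3571 genes were higher and 3432 lower, and the log2 ratio differences of 0.55, -0.65 and -1.36 had an exact p of 0.125, the smallest that 4 pairs allow. Ankrd1 had the fewest counts of the 10 genes, 71 to 237 per sample, and the largest SE (0.190); its log2 fold change was -1.03 with halved counts.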
